A study of Rattus norvegicus with 49 samples.

Results

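Cd300lg and 9 further genes of capillary endothelium (Pecam1, Cdh5, Tek, Emcn, Plvap, Vwf, Esam, Gpihbp1 and Tie1) were followed in rat thyroid tissue. A member was any gene of this list with a microarray probe whose RefSeq accession names that gene. Probes were found for 9 of the 10 genes, among 15154 gene symbols with a probe, and Vwf had none. Cd300lg had 2 probes and each of the other 8 genes had 1. Cd300lg was chosen by its measured level in young rats 9 months after 50 and 500 kBq against the 10-month controls, so its values against the controls of that comparison are described without a test. The other 9 genes were added as markers of endothelium.

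Male Sprague Dawley rats received 131I, a beta- and gamma-emitting isotope that thyroid tissue takes up, and total RNA of whole thyroid was hybridised to 49 one-colour Agilent rat arrays, 1 array per sample. Rats injected at 5 weeks of age ("young") received 50 kBq and were examined after 3 months (4 arrays), 6 months (4 arrays) or 9 months (4 arrays), or received 0.5 kBq (4 arrays), 5 kBq (3 arrays) or 500 kBq (4 arrays) and were examined after 9 months. Rats injected at 17 weeks ("adult") received 50 kBq and were examined after 3, 6 or 9 months (4 arrays each). Untreated rats were examined at 4 months of age (4 arrays), 7 months (3 arrays), 10 months (4 arrays) and 13 months (3 arrays), and each exposed group was compared with the untreated group of its own age at examination. The 10-month controls therefore served 5 exposed groups and the 7-month controls served 2, so those comparisons are not independent.

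Each level below is a log2 signal minus the log2 of that array's 75th percentile, so 0 is the 75th percentile of the array. A gene was called different at a Benjamini-Hochberg adjusted limma p below 0.01 and a fold change over 1.5, over 25304 probes tested. The tissue was measured in bulk, so fewer endothelial cells and less RNA of a gene per endothelial cell cannot be told apart.

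Of the 49 arrays, 3 stood apart, and results are given with and without them. The array of replicate 2 of the young 50 kBq 3-month group had 43.11% of its spots above background, against 69.2 to 82.46% on the other 48. Replicate 3 of the same group and replicate 2 of the 7-month controls went against their tissue label: the log2 mean signal of 12 follicular thyrocyte genes was -1.35 and -1.98 in them, and between 3.73 and 5.08 in the remaining 46 arrays. Skeletal muscle genes stood at 8.42 and 7.94 in these arrays and between -1.27 and 7.45 in the 46. Without the 3 arrays, 2 arrays were left in the young 50 kBq 3-month group and 2 in the 7-month controls. Arrays 1 and 2 of the 13-month controls lay closer to each other than any other pair of a group, with a median absolute deviation of their difference of 0.157, followed by arrays 1 and 2 of the adult 6-month group at 0.177, where the median over 69 pairs was 0.369. Whether either pair is 1 RNA on 2 arrays was not settled.

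Capillaries carry blood past every thyroid follicle, and their endothelial cells in this gland are pierced by small pores (fenestrae) closed by thin diaphragms. Endothelial cells are held together by junction proteins such as VE-cadherin (Cdh5), PECAM-1 (Pecam1) and ESAM (Esam). Their survival and maturation depend on the receptor Tie2 (Tek), which binds angiopoietins, and on the related receptor Tie1. Plvap builds the diaphragms of fenestrae and caveolae, and endomucin (Emcn) coats the surface of capillary and venous endothelium. Gpihbp1 carries lipoprotein lipase across the capillary wall, which places it where fat is taken up. Cd300lg is an immunoglobulin-like receptor of capillary endothelium that binds lymphocytes. Vwf encodes the clotting protein stored in endothelial granules.

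Promoter sequences in the RefSeq collection for the rat build GRCr8 were at hand for 3 of the 10 genes, Emcn, Plvap and Tie1, and are shown because Emcn varied from array to array together with both of the others. The 250 bases before the annotated start are printed 5' to 3' on the gene's own strand, and capitals mark AGGAAG or its reverse complement CTTCCT, a motif built on the core that ETS factors of endothelial cells bind.
Emcn, chr2:228564289-228564538, plus strand: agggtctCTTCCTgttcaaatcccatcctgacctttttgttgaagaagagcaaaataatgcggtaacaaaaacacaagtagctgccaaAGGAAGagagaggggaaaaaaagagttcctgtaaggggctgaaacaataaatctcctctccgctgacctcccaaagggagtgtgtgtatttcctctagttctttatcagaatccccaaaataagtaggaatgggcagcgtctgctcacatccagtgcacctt
Plvap, chr16:18231280-18231529, minus strand: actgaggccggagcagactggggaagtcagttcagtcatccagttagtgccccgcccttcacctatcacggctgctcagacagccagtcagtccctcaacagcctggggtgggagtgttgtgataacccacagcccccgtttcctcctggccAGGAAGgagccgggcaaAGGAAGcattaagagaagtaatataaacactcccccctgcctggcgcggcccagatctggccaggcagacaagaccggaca
Tie1, chr5:137304982-137305231, minus strand: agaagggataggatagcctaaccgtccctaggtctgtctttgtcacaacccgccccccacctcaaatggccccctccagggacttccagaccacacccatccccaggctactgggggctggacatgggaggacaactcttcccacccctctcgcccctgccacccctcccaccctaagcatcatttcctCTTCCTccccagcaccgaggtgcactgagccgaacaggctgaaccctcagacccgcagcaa
The motif was found 2 times for Emcn, 2 times for Plvap and 1 time for Tie1, and 29.5% of 33469 promoters of the same length held it at least 1 time. The G and C content was 44.4% for Emcn, 59.2% for Plvap and 61.6% for Tie1.

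On its brighter probe (A_64_P032951) Cd300lg differed most from array to array. The levels of this probe ran from -7.13 to 0.26 with an SD of 2.25 over 49 arrays, whereas the levels of the other 8 members had an SD between 0.24 and 0.81. The values fell into 2 ranges with an empty stretch between -4.11 and -2.23: 16 arrays lay below it and 33 above it. The gap of 1.88 compares with 0.57 for the next widest gap of this probe. Among 25191 probes measured on every array, 0.341% had a gap as wide with at least 10 arrays on each side.

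Both ranges occurred within most groups. In untreated rats the Cd300lg levels were -7.13, -6.01, -4.68 and -1.94 at 4 months of age, -6.02, -4.11 and -1.41 at 7 months, and -5.62, -4.65, -1.22 and -0.97 at 10 months. At 13 months they were -1.38, -0.56 and -0.49. The low range thus held 3 of 4, 2 of 3 and 2 of 4 control arrays at the first 3 ages and none of 3 at 13 months, and the lowest array at 4 months was not well above background.

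In young rats given 50 kBq the levels of Cd300lg were -6.16, -1.60, -1.08 and 0.14 at 3 months after injection, -6.18, -5.07, -1.41 and -1.38 at 6 months, and -2.08, -1.04, 0.15 and 0.26 at 9 months. At the other activities 9 months after injection they were -6.56, -6.27, -4.73 and -0.49 for 0.5 kBq, -5.31, -2.23 and -0.98 for 5 kBq, and -1.81, -1.37, -1.31 and -0.32 for 500 kBq. No array of the 50 and 500 kBq groups at 9 months was in the low range, against 3 of 4 at 0.5 kBq and 1 of 3 at 5 kBq. All of these groups overlapped with the 10-month controls. Over all groups, the low range held 10 of 24 arrays on 1 scan date and 3 of 14 and 3 of 11 on the others. No 500 kBq array was scanned on the date with 24 arrays, but most of the 0.5 kBq arrays and 10-month controls were. The part of scan date in the 2 ranges was not tested.

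In adult rats given 50 kBq the levels were -1.87, -1.54, -1.13 and -0.74 at 3 months, -5.32, -1.05, -0.29 and -0.22 at 6 months, and -5.34, -1.60, -1.46 and -0.32 at 9 months. A single array stood in the low range at 6 months and a single array at 9 months.

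The group means of Cd300lg were ordered from -0.68 ± 1.11 (SD, n = 4) in young rats 9 months after 50 kBq and -0.81 ± 0.49 (n = 3) in 13-month controls, through -2.18 ± 2.18 (n = 4) in adult rats at 9 months, to -4.51 ± 2.80 (n = 4) at 0.5 kBq and -4.94 ± 2.24 (n = 4) in 4-month controls. Neighbours in this order differed by less than their SDs throughout. These means and the differences that follow are for the brighter probe. Against the 10-month controls (-3.11 ± 2.37, n = 4) young rats differed by -1.40 (0.5 kBq), 0.27 (5 kBq), 2.44 (50 kBq) and 1.91 (500 kBq) on the log2 scale, and adult rats at 6 months by 1.39. The second probe gave -0.01, 0.39, 1.20 and 0.79 for these young groups and 0.73 for the adult rats. Against the other controls, which played no part in the choice of the gene, Cd300lg was 2.76 higher in young rats at 3 months (SE 1.43, limma adjusted p = 0.149) and 0.34 higher at 6 months (SE 1.54, adjusted p = 0.986). In adult rats it was 2.53 higher at 3 months (SE 1.54, adjusted p = 0.998) and 1.37 lower at 9 months (log2 difference -1.37, SE 1.54, adjusted p = 0.665). None of these 4 differences passed the threshold. On the second probe they were 1.84 and -0.17 in young rats at 3 and 6 months, and 0.41 and -0.655 in adult rats at 3 and 9 months. The 2 probes thus differed in sign in young rats at 6 months.

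Genes of other tissues moved beside Cd300lg in young rats 9 months after 50 kBq. All 7 cartilage genes were higher than in the 10-month controls (median difference 2.13), 5 of them with a p below 0.05 and none called. In this comparison 1.45% of all probes had a p below 0.05. For the slope on activity 1.25% of all probes and 5 of the 7 cartilage genes had a p below 0.05. Their log2 mean signal was -1.72 and -1.53 in replicates 1 and 3 and -4.96 and -4.79 in replicates 2 and 4, against -5.21 to -4.98 in the controls, while Cd300lg stood at 0.15 and -2.08 in replicates 1 and 3 and at -1.04 and 0.26 in replicates 2 and 4. The same replicates 1 and 3 had the higher airway signal, and the 4 airway genes had a median difference of 2.52, 1 with a p below 0.05. Within groups the cartilage signal correlated with Cd300lg at r = 0.06 (rho 0.16) over 46 arrays. At 500 kBq 1 of 7 cartilage genes (median difference 1.05) had a p below 0.05, where 1.67% of all probes did. The cartilage signal there was -1.91 in a single array and at or below -4.99 in the others.

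**Figure D1:**
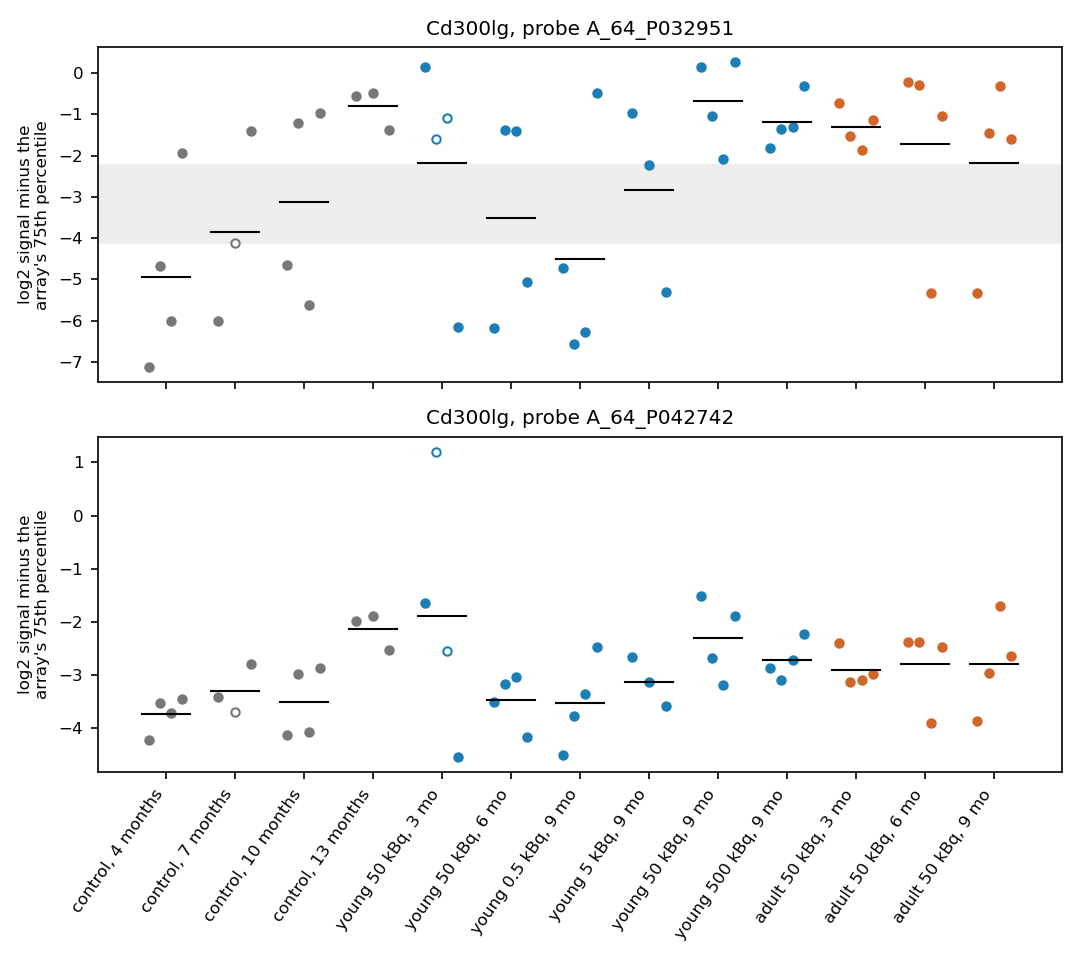
Level of both Cd300lg probes (log2 signal minus the array's 75th percentile, y axis) in the 13 groups (x axis), 1 point per array, with black lines for group means, grey points for controls, blue for young and orange for adult exposed rats, and open points for the 3 arrays that stood apart. The grey band marks the empty stretch from -4.11 to -2.23 on the first probe, with 16 arrays below it and 33 above it.

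The second Cd300lg probe (A_64_P042742) covered a narrower range, from -4.54 to 1.19. Its highest level, 1.19, was that of the dim array, and without that array its highest level was -1.50. The SD of this probe was 0.96 over 49 arrays and 0.76 without the dim array, where Plvap had 0.81. So on this probe Cd300lg did not differ most from array to array once the dim array was left out. Where the first probe lay in the low range, the second lay at or below -3.36, and where the first lay in the high range the second lay at or above -3.46, so the ranges nearly separated on this probe too. Among the 46 arrays without the 3, the 2 probes correlated at r = 0.88 (rho 0.86, n = 31) in the high range and at r = -0.14 (rho -0.20, n = 15) in the low range. In young rats at 3 months this probe read 1.84 higher than in controls (SE 0.62, adjusted p = 0.040), with overlapping groups. The difference was 0.63 (adjusted p = 0.665) without the 3 arrays, and within the 2 scan dates it was 0.33 and 3.36, the second with the dim array.

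Gpihbp1 varied over a range of 3.26, from -2.49 to 0.77. Its highest array was replicate 2 of the 7-month controls, the array with little thyroid signal. In the 7-month controls the levels were -0.61, -0.43 and 0.77, and in young rats 6 months after 50 kBq they were -2.14, -1.17, -1.16 and -1.07. All 4 exposed arrays were below all 3 controls, with a log2 difference of -1.29 (SE 0.52, adjusted p = 0.633), where 8.11% of all probes had groups that did not overlap and 6.67% an unadjusted p below 0.05. Without the thyroid-poor control the difference was -0.86 (adjusted p = 0.589). The 4 exposed arrays were scanned on a date on which no 7-month control was scanned, so scan date and exposure cannot be told apart here.

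Adult rats 3 months after 50 kBq, compared with the same controls, had Gpihbp1 levels of -1.55, -1.19, -1.04 and -0.75. These lay below the controls without overlap as well (log2 difference -1.04, SE 0.52, adjusted p = 0.998), where 7.57% of probes did not overlap and 4.64% had a p below 0.05. The difference was -0.61 without the 3 arrays and -0.59 within the only scan date that held both groups. In the remaining groups Gpihbp1 means ran from -1.27 ± 0.43 (n = 4) at 500 kBq to -0.47 ± 0.23 (n = 4) in adult rats at 9 months.

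Pecam1, the adhesion gene of endothelial contacts that platelets and leukocytes also express, stood apart in 1 control group. Outside the 13-month controls and the 3 arrays that stood apart, its levels lay between 0.03 and 0.89. In the 13-month controls they were 0.98, 1.35 and 1.53, above every array of the other control groups. Adult rats of the same age, 9 months after 50 kBq, had 0.39, 0.48, 0.58 and 0.69, and these groups did not overlap. The log2 difference was -0.75 (0.54 ± 0.13 against 1.29 ± 0.28, SE 0.22), with a limma adjusted p of 0.045, which misses the threshold of 0.01. Without the 3 arrays that stood apart, none of which belongs to these groups, the same difference had an adjusted p of 0.0012 and was called, as were 8.92% of all probes in that fit. With each close pair of arrays averaged to 1 sample, the adjusted p was 0.219.

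Cdh5 lay between -4.37 and -3.09 in the 46 arrays. The 3 arrays that stood apart read 0.16, -2.45 and -2.82, above all others. In young rats at 3 months the levels were -3.76, -3.31, -2.45 and 0.16, and in the 4-month controls -4.01, -3.72, -3.53 and -3.42. The log2 difference was 1.33 (SE 0.42, adjusted p = 0.032), or 1.03 relative to the median of all probes, which was 0.29 in this comparison and -0.08 after quantile normalisation. It was 0.13 (adjusted p = 0.849) without the 3 arrays. Cdh5 also gave the only member with an unadjusted p below 0.05 for the difference between the young and adult responses at 3 months (1.78, SE 0.61, adjusted p = 0.078), which was 0.24 without the 3 arrays.

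Esam had the narrowest range of all members, from -2.07 to -1.0002. Its group means lay between -1.64 ± 0.39 (n = 4) at 500 kBq and -1.35 ± 0.10 (n = 3) in the 13-month controls, and neighbouring means differed by no more than the larger of their SDs. No comparison of Esam had a p below 0.05 or groups without overlap.

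Of the receptors, Tie1 (range -4.02 to -2.77) was lowest in the 13-month controls. The levels there were -4.02, -3.83 and -3.67, against -3.40, -3.39, -3.10 and -2.91 in adult rats 9 months after 50 kBq. These groups did not overlap, and the log2 difference was 0.64 (SE 0.21, adjusted p = 0.064). The adjusted p was 0.023 without the 3 arrays and 0.244 with the close pairs averaged, so Tie1 was not called under either.

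Tek, which encodes the angiopoietin receptor itself, went the other way. Its levels were -5.12, -4.46 and -4.41 in the 13-month controls and -5.57, -5.17, -5.16 and -5.01 in the exposed adult rats, so the groups overlapped through the lowest control array. The difference was -0.57 (SE 0.26, adjusted p = 0.196). In the other groups the means of Tek lay between -5.51 ± 0.38 (n = 4) at 0.5 kBq and -4.84 ± 0.72 (n = 4) in young rats at 3 months, the highest array there being the dim array, where Tek was not well above background.

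Plvap, the diaphragm gene, ranged from -0.11 to 4.03. The lowest levels, -0.11 and 0.60, were those of the 2 thyroid-poor arrays, and the other 47 arrays lay at or above 1.20. The 13-month controls had the highest group mean (3.75 ± 0.25, n = 3). Their levels were 3.55, 3.68 and 4.03, against 1.98, 2.65, 3.00 and 3.44 in adult rats at 9 months. The groups did not overlap, and the log2 difference was -0.98 (SE 0.58, adjusted p = 0.332).

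Emcn, the surface sialomucin, lay between -1.998 and -0.36. Its group means ran from -1.57 ± 0.37 (n = 4) in young rats at 3 months to -0.96 ± 0.29 (n = 4) in adult rats at 9 months, and 18.3% of its variance lay between groups. No Emcn comparison had a p below 0.05 or groups that did not overlap.

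**Figure D2:**
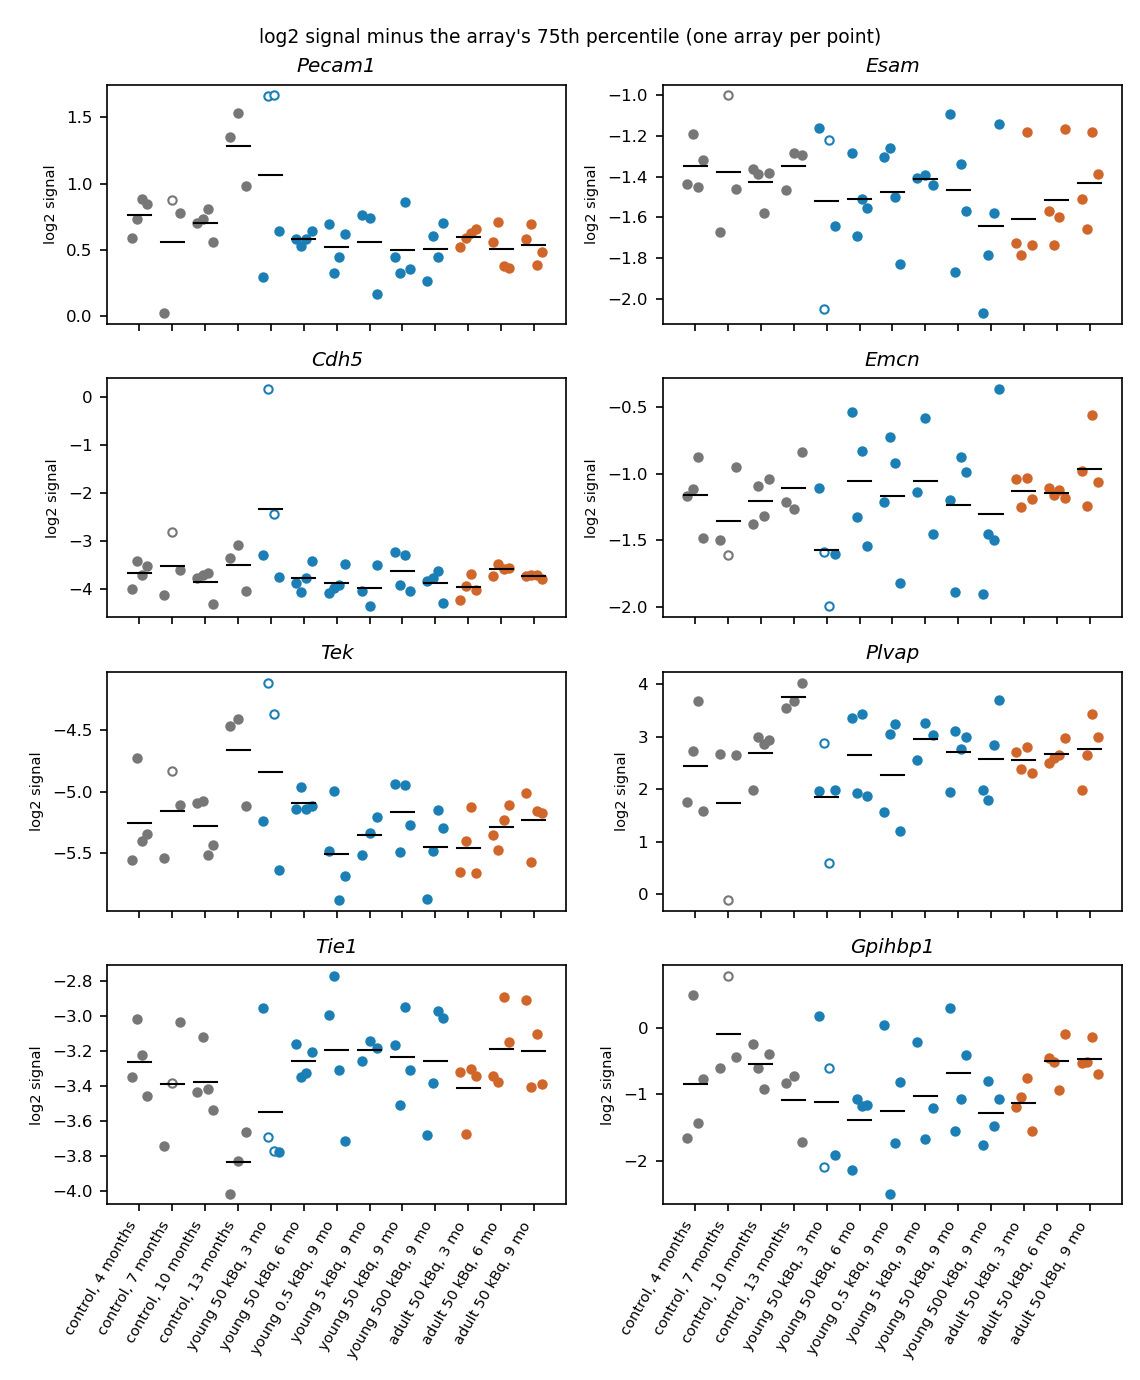
Level of the other 8 members (log2 signal minus the array's 75th percentile, y axes) in the 13 groups (x axes), 1 point per array, with black lines for group means, grey points for controls, blue for young and orange for adult exposed rats, and open points for the 3 arrays that stood apart. In the 13-month controls Pecam1 lay between 0.98 and 1.53 and Plvap between 3.55 and 4.03, and Tie1 between -4.02 and -3.67.

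Taken by comparison, no member was called in any of the 9 exposed groups. In young rats, 0.0119% of all probes were called at 3 months after 50 kBq, 0% at 6 months, 0% after 0.5 kBq, 0.0119% after 5 kBq, 0.0119% after 50 kBq at 9 months and 0% after 500 kBq. In adult rats the share was 0% at 3 months, 0% at 6 months and 0.541% at 9 months.

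At 9 months in young rats, the comparison across activities, the members other than Cd300lg lay between -0.73 and 0.26 of the 10-month controls. None of these members had a p below 0.05 in any of the 4 groups, and Cd300lg is left out of this count. Among all probes 0.937% did after 0.5 kBq, 1.84% after 5 kBq, 1.45% after 50 kBq and 1.67% after 500 kBq. Exposed and control arrays overlapped for each member other than Cd300lg, while 1.02%, 15.4%, 4.03% and 3.06% of all probes did not overlap. From the lowest to the highest activity the median member difference, Cd300lg included, was -0.18, 0.01, 0.01 and -0.11, beside medians of -0.00, -0.02, 0.05 and 0.07 over all probes. The SEs of the single differences of members other than Cd300lg ran from 0.19 to 0.58, which limits what 3 or 4 arrays a group could show.

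A slope on the logarithm of activity over the 4 exposed young groups gave no p below 0.05 for a member other than Cd300lg, with 1.25% of all probes below it and 0% called. For a slope, the fold change over 1.5 applied to 1 unit, a 10-fold activity or 1 month of age. The slopes of those 8 members lay between -0.06 and 0.07 per 10-fold activity. For Cd300lg the slope was 1.21 per 10-fold activity (SE 0.46) on the brighter probe and 0.32 on the second. It is given as a description because the gene was chosen for its levels at 50 and 500 kBq.

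At 3 months in young rats 1 of 9 members (Cdh5) had a p below 0.05, where 37.7% of all probes did, and no member had groups without overlap, where 5.25% of probes did. The dim array belongs to this group, and without the 3 arrays no member had a p below 0.05, against 10.1% of probes. The median member difference was -0.17, beside 0.29 over all probes. In adult rats at 6 months the members other than Cd300lg lay between -0.20 and 0.28, none with a p below 0.05 (0.842% of probes) and none without overlap (4.14% of probes).

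Adult rats 9 months after 50 kBq held the most separations. Of 9 members, Pecam1 and Plvap were lower and Tie1 and Gpihbp1 higher than the 13-month controls without overlap, and 26.1% of all probes did not overlap either. Pecam1, Tie1 and Tek had a p below 0.05, where 21.9% of probes did. Gpihbp1 levels were -0.69, -0.54, -0.51 and -0.15 in exposed rats and -1.72, -0.83 and -0.72 in controls (log2 difference 0.62, SE 0.52, adjusted p = 0.533). The median over all probes was -0.14 here and -0.04 after quantile normalisation, and relative to the former the differences were -0.61 for Pecam1, -0.84 for Plvap, -0.43 for Tek, 0.76 for Gpihbp1 and 0.78 for Tie1.

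Some measures of tissue make-up moved with this comparison. The follicular thyrocyte genes (all 12 tested, none called) had a log2 mean signal of 4.76 to 5.08 in the 13-month controls and 4.17 to 4.59 in the exposed rats. The 11 mural cell genes stood at -0.73 to 0.20 in the controls and at -0.91 to 2.07 in the exposed rats. This mean signal is set by the brightest genes: gene by gene the median mural difference was 0.02, with 6 of 11 higher. The 10 skeletal muscle genes stood at 4.51 to 4.96 in the controls, against -1.27 in a single exposed array and 6.78 to 7.13 in the rest. The 5 C cell genes, with which Plvap varied from array to array, stood at 5.70 to 5.89 in the controls and at 4.59 to 5.40 in the exposed rats, and all 5 were lower (median difference -0.70). Of 8 macrophage genes all were higher in the exposed rats (median difference 0.64), 4 with a p below 0.05, and their log2 mean signal was -0.63 to 1.21 in the controls and 0.56 to 1.41 in the exposed rats. The part of these cell types in the member differences was not tested. The scan date that held 2 arrays of each group gave differences of -0.68 for Pecam1, -1.08 for Plvap, -0.29 for Tek, 0.93 for Gpihbp1 and 0.84 for Tie1. These arrays are part of the pooled comparison, so the values are no separate check of scan date.

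**Figure D3:**
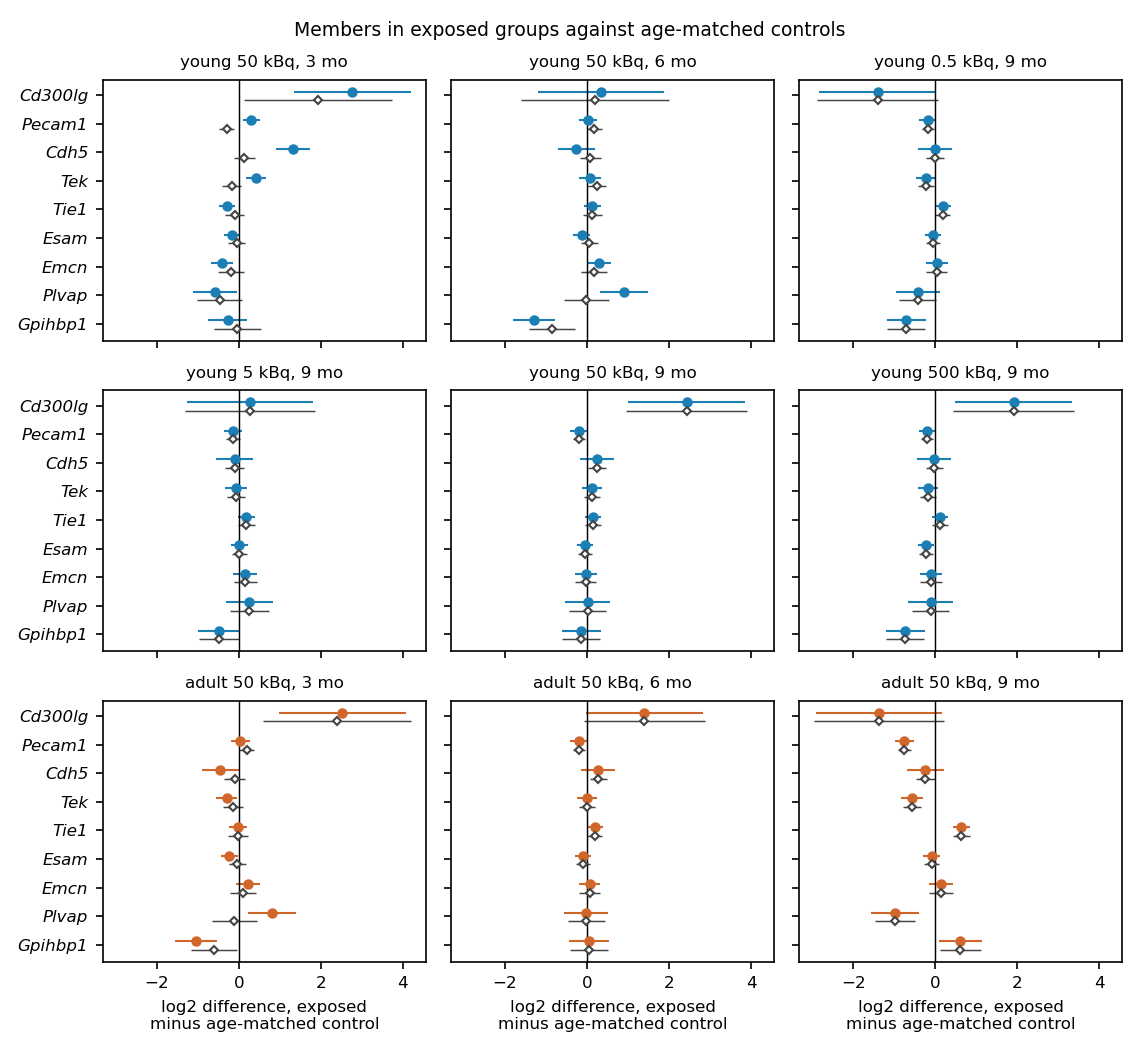
Log2 difference of each member from the age-matched controls (x axis, exposed minus control, error bars 1 SE) in the 9 exposed groups, with members on the y axis, filled points for all 49 arrays and open diamonds without the 3 arrays that stood apart. Cd300lg has the widest error bars, 1.43 to 1.54 with all arrays, and in adult rats at 9 months Pecam1 lies at -0.75 and Tie1 at 0.64.

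Age in untreated rats was followed as a slope over the 4, 7, 10 and 13-month controls. The log2 slope per month was 0.16 for Plvap (SE 0.06, adjusted p = 0.062), 0.06 for Pecam1 (SE 0.02, adjusted p = 0.092) and -0.06 for Tie1 (SE 0.02, adjusted p = 0.068). None passed the adjusted threshold, 31.2% of all probes had a p below 0.05 and 0.0158% were called. Without the 3 arrays the adjusted p was 0.0077 for Pecam1, 0.047 for Tie1 and 0.053 for Plvap, while 39.8% of all probes had an unadjusted p below 0.05. With the close pairs averaged, 1 of them in the 13-month controls, it was 0.262 for Pecam1, 0.189 for Tie1 and 0.134 for Plvap. Over 4, 7 and 10 months alone the slope was -0.011 per month for Pecam1, 0.042 for Plvap and -0.019 for Tie1 (adjusted p = 1.00 for each), so the direction held for Plvap and Tie1 and turned for Pecam1. The slope of Cd300lg, which includes the 10-month controls, was 0.44 per month (SE 0.16) on the brighter probe and 0.15 on the second, as a description.

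The response of young rats minus that of adult rats to 50 kBq was also compared at each time after injection. At 3 months 29.3% of all probes had a p below 0.05, at 6 months 4.11% and at 9 months 13.4%, and 0% were called at each. Apart from Cdh5 at 3 months, no main probe of a member had a p below 0.05, with Cd300lg at 9 months left out of this count. For Cd300lg the difference at 9 months was 3.80 on the brighter probe and 1.86 on the second. It is given as a description because the young 50 kBq group at 9 months played a part in the choice of the gene.

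The genes around these members in the same pathways were taken from lists. Of 30 other endothelial genes 23 were tested, and none was called in any comparison with all arrays. In adult rats at 9 months 10 of the 23 had a p below 0.05, against 21.9% of all probes, with a median difference of -0.19. Kdr, the main receptor for VEGF, was 0.98 lower (log2 difference -0.98, SE 0.25, adjusted p = 0.025), Clec14a, an endothelial surface lectin, was lower with a difference of -0.77 (adjusted p = 0.056), and Esm1, a secreted proteoglycan of sprouting endothelium, with -1.56 (adjusted p = 0.1004). In the same comparison Icam2, an adhesion molecule, was 0.44 higher (adjusted p = 0.172) and Lmo2, a transcription cofactor, 0.58 higher (adjusted p = 0.123).

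Of the 5 tested ligands and partners of Tek and Tie1, 4 had a p below 0.05 in that comparison, where 21.9% of all probes did. Angpt2, the angiopoietin that loosens vessels, was 1.84 higher in exposed rats (SE 0.46, adjusted p = 0.021). The adjusted p of Angpt2 was 5.9e-05 without the 3 arrays, where 8.92% of all probes were called, and 0.123 with the close pairs averaged, where none was. For Kdr these values were 0.0030 and 0.175. Angpt1, the activating angiopoietin, had a difference of -0.61 (adjusted p = 0.203). The age slope ran the opposite way in controls, which are shared with this comparison, at 0.11 per month for Kdr (adjusted p = 0.0062) and -0.18 per month for Angpt2 (adjusted p = 0.014).

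Among 6 caveola genes, which are partners of Plvap, Cavin2 was lower by 0.78 (log2 difference -0.78, adjusted p = 0.048) in adult rats at 9 months and the other 5 had differences above 0. Of the 10 genes of capillary lipid uptake, where Gpihbp1 acts, 9 were higher than in the controls, with a median difference of 0.61. The fatty acid carrier Cd36 alone had a p below 0.05 (1.34, SE 0.56, adjusted p = 0.147). Lpl, the lipase that Gpihbp1 binds, differed by 0.73 (SE 0.75) there, by -1.17 (SE 0.75) in young rats at 6 months and by -0.90 (SE 0.75) in adult rats at 3 months.

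Across the 4 activities at 9 months in young rats, the same 4 lists held at most 3 of 23, 1 of 5, 0 of 6 and 1 of 10 genes with a p below 0.05 in any group. The 3 of 23 were at 50 kBq, where 1.45% of all probes had a p below 0.05. At 0.5, 5 and 500 kBq this share was 0.937%, 1.84% and 1.67%. The median of the lipid uptake list was -0.43, -0.80, -0.16 and -0.75 at 0.5, 5, 50 and 500 kBq.

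From array to array within groups the members did not vary as 1 block. Levels were centred on their group means and correlated over the 46 arrays without the 3. These arrays share scaling and tissue, and the correlations are descriptions. Emcn correlated with Esam (r = 0.67, rho 0.59), Plvap (r = 0.64, rho 0.62) and Tie1 (r = 0.61, rho 0.61). Esam also correlated with Tie1 (r = 0.66, rho 0.69) and Tek (r = 0.62, rho 0.65), and Tek with Tie1 (r = 0.62, rho 0.62). Leaving out the 2 farthest arrays kept each of these 6 between 0.55 and 0.67. The Plvap and Tie1 promoters printed above belong to genes that correlated less with each other (r = 0.29, rho 0.29). Pecam1 correlated with no other member above r = 0.25, and Plvap and Gpihbp1 correlated negatively (r = -0.34, rho -0.35).

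**Figure D4:**
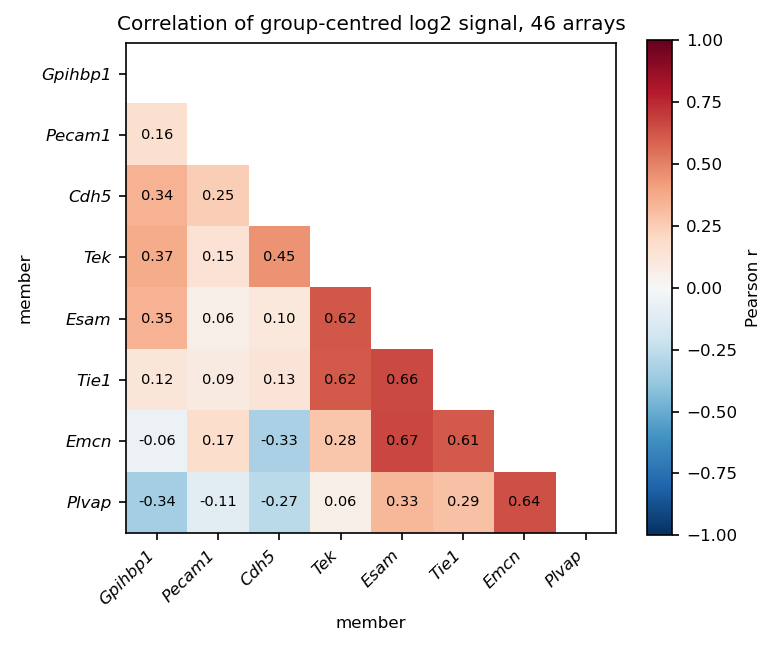
Pearson r between the 8 members other than Cd300lg (both axes), from levels centred on group means over 46 arrays, with red for positive and blue for negative values. Esam, Tie1, Tek and Emcn form the positive block, 0.67 for Emcn with Esam, while Plvap with Gpihbp1 stands at -0.34.

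Because Cd300lg fell into 2 ranges, its relation to the others was computed within each range, over arrays that share scaling and without centring on groups. Gpihbp1 went with it in both: r = 0.81 (rho 0.81, n = 15; 0.86 without the 2 farthest) in the low range and r = 0.57 (rho 0.50, n = 31; 0.49 without the 2 farthest) in the high range. In the low range Cdh5 (r = 0.52) and Tek (r = 0.48) came next and the others lay between -0.34 and 0.23, and in the high range all 7 others lay between -0.10 and 0.21. All these values are for the brighter Cd300lg probe. In the low range it did not vary with the second probe (r = -0.14), so the low-range values rest on 1 probe.

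Gpihbp1 itself followed fat genes. Over the 46 arrays its level correlated with the log2 mean signal of 9 white adipocyte genes (adiponectin and others) at r = 0.87 (rho 0.89; 0.86 without the 2 farthest) and with 4 brown adipocyte genes at r = 0.85 (rho 0.88). The array of young rats at 6 months with the lowest Gpihbp1 there, -2.14, also had the lowest white adipocyte signal of its group, 1.22 against 2.61 to 3.30. In the comparisons where Gpihbp1 was lower without overlap, the white adipocyte signal was 1.22 to 3.30 in young rats at 6 months and 2.17 to 3.26 in adult rats at 3 months, against 2.72 to 4.01 in the 7-month controls. In adult rats at 9 months, where Gpihbp1 was higher without overlap, this signal was 3.08 to 3.48. The 13-month controls there had 1.58, 3.62 and 3.72, so the 2 groups overlapped in this mean signal. Gene by gene the median white adipocyte difference was 0.73, with 8 of 9 genes higher. A p below 0.05 was found for 1 of them, where 21.9% of all probes had one. In young rats at 6 months a p below 0.05 was found for 7 of 8 macrophage genes (median difference 0.95). It was also found for 4 of 5 lymphatic genes (1.40), where 6.67% of all probes had one. Without the 3 arrays these counts were 3 and 2. In adult rats at 3 months 4 of 8 macrophage genes (0.65) and 4 of 5 lymphatic genes (1.13) had one. There 4.64% of all probes did, and without the 3 arrays the gene counts were 0 and 0. The part of adipose tissue and of these cell types in the Gpihbp1 differences was not tested.

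Plvap went with thyroid C cells, the calcitonin cells between follicles. It correlated with the signal of 5 C cell genes at r = 0.64 (rho 0.66; 0.64 without the 2 farthest) and with 11 mural cell genes at r = -0.57 (rho -0.55). Tek, Esam and Tie1 were the members closest to the other endothelial genes, at r = 0.72, 0.62 and 0.59.

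**Figure D5:**
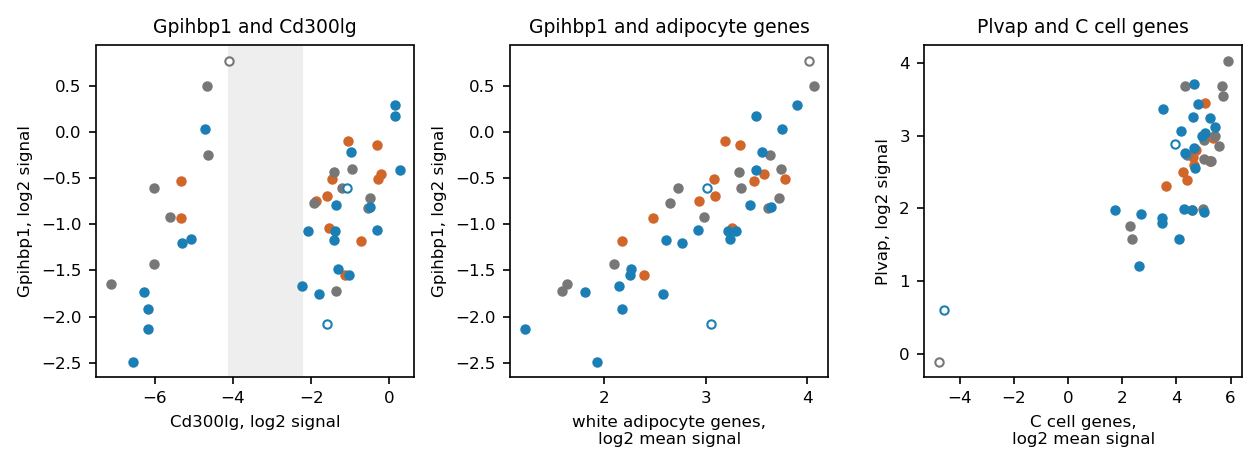
Each point is 1 of 49 arrays, grey for controls, blue for young and orange for adult exposed rats, open for the 3 arrays that stood apart; axes are log2 signals minus the array's 75th percentile, not centred on groups. Left, Gpihbp1 (y) against Cd300lg (x), with the empty stretch from -4.11 to -2.23 in grey; middle, Gpihbp1 (y) against 9 white adipocyte genes (x), rising together; right, Plvap (y) against 5 C cell genes (x), with the 2 thyroid-poor arrays at lower left (-0.11 and 0.60).

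The other cell type lists held no called gene in any comparison with all arrays. Young rats at 3 months were the group of the dim and a thyroid-poor array. The largest shares with a p below 0.05 there were 6 of 7 cartilage, 5 of 7 squamous and 4 of 6 lymphocyte genes. They were followed by 2 of 4 airway and 2 of 4 parathyroid genes, and the share of all probes was 37.7%. Without the 3 arrays these counts were 3, 6, 0, 0 and 2, against 10.1% of all probes. In adult rats at 9 months 21.9% of all probes had a p below 0.05. The counts there were 0 of 5 lymphatic, 2 of 11 mural, 0 of 4 platelet, 1 of 9 white adipocyte, 0 of 4 brown adipocyte, 0 of 10 skeletal muscle, 0 of 7 squamous, 0 of 7 cartilage, 0 of 4 airway, 0 of 4 parathyroid, 0 of 5 C cell, 1 of 12 thyrocyte, 0 of 6 lymphocyte and 4 of 8 macrophage genes.

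Over all genes with a tested probe, those closest to Cd300lg by Pearson r of group-centred levels over 49 arrays were Ndufa10l1 (0.64), Gstz1 (0.60), Pomc (0.59), Timm10b (0.56), Adra1d (0.56), Rnf152 (0.55), Bche (0.55), Mrpl57 (0.55), Apoc3 (0.55) and Ilvbl (0.55). Without the 3 arrays Ndufa10l1 (0.69) stayed first and Mrpl57 (0.66), Gmfb (0.64), Slc5a6 (0.63) and Psmb2 (0.62) came next, the last 3 of which had ranked 244, 455 and 206 with all arrays. Rnf152, Bche, Apoc3 and Ilvbl then ranked 19, 24, 39 and 22. Within the ranges of Cd300lg, Ilvbl kept r = 0.80 in the low and 0.81 in the high one. Bche, the plasma cholinesterase, had 0.80 and 0.68. Adra1d, an adrenergic receptor, had 0.89 and 0.50.

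Closest to the mean of the other 8 members were Clec1a (0.80), Pcdh17 (0.75), Tinagl1 (0.73), Tmem88 (0.73), Kdr (0.73), She (0.72), Flt1 (0.72), Gata2 (0.71), Rras (0.70) and Rab43 (0.69). Of these 10, Kdr, Flt1 and Gata2 are on the list of other endothelial genes. Without the 3 arrays the leading genes were Tinagl1 (0.85), Adgrl4 (0.81), Clec1a (0.77), Gpr4 (0.77) and Eng (0.75), and Gpr4 and Eng had stood at 0.14 and 0.29 with all arrays.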

How the data were processed

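Total RNA of thyroid samples from separate animals, per the labels, was labelled with Cy3 and hybridised to 49 arrays. The authors deposited scanner output of Agilent Feature Extraction 10.7.3.1, whose processed signal is a background-subtracted intensity with no scaling between arrays. The deposited table of the authors' own fold changes was not used. Control spots and outlier-flagged spots were left out, spots of a probe were averaged, and each array's 75th percentile was subtracted from the log2 intensity. RefSeq accessions gave a gene symbol to 17998 of 30367 probes. The brightest probe stood for a gene.

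A probe well above background on at least 3 arrays was tested (25304 probes) in 1 limma 3.58.1 fit of 13 groups in R 4.3.3, with Benjamini-Hochberg adjustment. Figures were drawn with matplotlib 3.10.9 under Python 3.11.15. The script was tested on simulated data. All members were described by group, and a single difference was named where its unadjusted p was below 0.05 or the groups did not overlap. The 10 genes closest to Cd300lg and the 10 closest to the mean of the other members were named by Pearson r. Kdr, Clec14a, Icam2, Lpl and the angiopoietins were picked from their lists after their values were seen. The members and lists were chosen with earlier results of these data known. Leaving out the 3 arrays, averaging the close pairs, dropping the 13-month controls and a slide block without the dim array were chosen after seeing the data. The number of arrays limits the precision.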

Additional observations from a re-analysis of the deposited data

Results flagged for a closer look

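In 9 of 100 sets of 4 arrays (a member probe in a group) the highest or lowest array lay far from the others, with a gap above Dixon's critical value for the group's range. Chance gives about 1 in 20 such sets. No cause was tested for any of them.

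Cd300lg in adult rats at 6 months was low in replicate 3 on both probes, at -5.32 against -1.05 to -0.22 on the first (gap 0.837 of the range) and at -3.90 against -2.47 to -2.37 on the second (0.934). Gpihbp1 was low in replicate 1 of young rats at 6 months, at -2.14 against -1.17 to -1.07 (0.905), the array with the lowest white adipocyte signal of its group. Plvap was low in replicate 1 of the 10-month controls, at 1.99 against 2.86 to 2.99 (0.870).

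Esam was high in replicate 3 of adult rats at 3 months, at -1.18 against -1.79 to -1.73 (0.902), and low in replicate 3 of the 10-month controls, at -1.58 against -1.39 to -1.36 (0.881). Tek was high in replicate 2 of young rats at 6 months, at -4.96 against -5.14 to -5.11 (0.843). Tie1 was low in replicate 2 of adult rats at 3 months, at -3.67 against -3.34 to -3.30 (0.895), and high in replicate 1 of young rats at 3 months after 50 kBq, at -2.95 against -3.78 to -3.69 (0.894).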

How the results depend on the processing

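Of 292 recomputed member differences, 287 kept their direction and side of the threshold, 4 passed it and 1 reversed: the Pecam1 age slope, -0.011 over 4, 7 and 10 months, where 0 probes were called. None of these differences was called with all arrays, so this count cannot show a loss. A difference that shrank counted as kept, as Cdh5 in young rats at 3 months did without the 3 arrays. The counts of called probes moved more, and the cause was not tested. In adult rats at 9 months, 137 probes were called, against 275 with normexp and quantile normalisation, 9 without a filter, 2 with a scan date block, 975 with a slide block without the dim array, 1152 at an adjusted p below 0.05, 2256 without the 3 arrays, and 0 with the close pairs averaged or with the groups fitted alone. In young rats at 3 months, 3 were called, against 0 with a filter asking for every array of a group above background, the same slide block, the close pairs averaged, the groups fitted alone or the 3 arrays left out, and 4119 at an adjusted p below 0.05. In adult rats at 3 months the 0 became 5 with quantile normalisation and 9 with normexp, that slide block or the 3 arrays left out, which also gave 8 in young rats at 6 months. In young rats at 9 months, probes averaged by gene gave 1 at 5 kBq and 1 at 50 kBq, groups fitted alone gave 1 at each of the 4 activities, and the 19 arrays fitted alone gave 0 at 5 and 50 kBq. The age slope gave 1 with normexp, 12 with a scan date block and 0 with the close pairs averaged. For young minus adult, quantile normalisation gave 1 at 3 months and 1 at 9 months, normexp 1 at 9 months, and leaving out the 3 arrays 2, 2 and 572 at 3, 6 and 9 months.

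Array weights did not converge, with weights from 8.4e-36 to 349. They gave 12, 7441, 7667, 47, 7, 158 and 8684 called probes for young rats at 3 and 6 months, adult rats at 3 months, 5, 50 and 500 kBq at 9 months and adult rats at 9 months, and median member differences of 0.44 in young rats at 6 months and -0.61 in adult rats at 9 months.

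Replicate numbers did not pair the arrays: of 32 same-numbered pairs 10 had a correlation of deviations over 0.1 (-0.52 to 0.49). The replicate block gave 0 called probes in young rats at 3 months, 9 in adult rats at 9 months and 2 for the age slope.

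Leaving out 1 array at a time gave 0 to 4171 called probes in young rats at 3 months, 0 to 2 at 6 months, 0 to 8 in adult rats at 3 months, 0 to 3 at 0.5, 5 and 50 kBq, 0 to 1118 in adult rats at 9 months, 0 to 13 for the age slope, and 0 to 198, 0 to 1 and 0 to 4 for young minus adult at 3, 6 and 9 months. The median member difference in young rats at 3 months ran from -0.29 to 0.17. Probes below background have only a bound, and the dim array held 4 such member probes.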
